A study of Nicotiana tabacum with 9 samples.

Results

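Leaf RNA of cigar tobacco variety H382 (Nicotiana tabacum) at the seedling stage was compared between plants grown at a light intensity of 100 µmol m-2 s-1 (light 100) and plants at 50 µmol m-2 s-1 (light 50). The comparison takes 6 of the 9 libraries of the study, 3 per group, and all 123 genes of the deposited table. The remaining 3 libraries are from 200 µmol m-2 s-1 (light 200) and enter the fit of the spread and the comparison of both doublings of light. Variety, tissue and stage are shared by all groups. Light is the difference the labels give between them, with no duration of exposure. The design text calls the replicates biological, and it does not say whether a library came from 1 plant or a pool. Each gene is described by the product name that the authors' annotation gives it.

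Leaves under dim light invest in antenna proteins, which carry chlorophyll and pass absorbed light to photosystem I and photosystem II. Under stronger light, plants generally make less antenna and store more of the fixed carbon as starch. They also make flavonols and anthocyanins, phenolic pigments derived from phenylalanine that screen light. The comparison asks which of the transcripts in the table differ after the first doubling of light.

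Library totals were between 13743796 and 16603534 reads at light 100 and between 12395758 and 15374035 at light 50. The 123 genes took 6.13% ± 0.25 of reads at light 100 and 7.05% ± 0.40 at light 50 (SD, n = 3). The authors' deposited table marks 122 of them as changed between light 50 and light 200. The genes therefore come from a selection that used these same light 50 libraries, and the counts below are no independent evidence of change. Levels are given as CPM, reads of a gene per 1000000 reads of the library. A gene is called higher or lower when edgeR's quasi-likelihood test gave a Benjamini-Hochberg adjusted p under 0.05 over the 123 genes, and "rose" or "fell" is used of such genes only. All 19 antenna and photosystem gene names of the leaf mesophyll list and Rubisco activase were expressed. Photosystem II 10 kDa polypeptide (Nitab4.5_0000313g0040) was highest, with 19941 ± 398 FPKM at light 100 and 21449.5 ± 129 FPKM at light 50 (SD, n = 3).

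At light 100, genes of the flavonoid pathway, of sugar transfer onto small molecules and of starch metabolism, and a gene for ACC oxidase of ethylene synthesis, were higher than at light 50, mostly by more than 2-fold. Genes of the antenna, photosystem I and chlorophyll synthesis were lower, most of them by much less. Of the 123 genes, 97 were called (78.9%). Among them, 53 were higher (43.1%) and 44 lower (35.8%), and 26 were called in neither direction. A change of at least 2-fold was fitted for 23 of the genes called higher and for 7 of those called lower. The libraries of the groups did not overlap for 51 genes that were higher (41.5%) and for 51 that were lower (41.5%). The authors' deposited table marks 29 genes as higher (23.6%) and 15 as lower (12.2%) at light 100. All 44 were called in the same direction here, from the same counts. Of the genes called here, 24 higher and 29 lower are not marked there. The authors' adjusted p-values reach 10147 times their p-values, so their correction took in more genes than the 123 used here. In whole leaves, fewer cells of a type and less RNA per cell cannot be told apart.

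**Figure D1:**
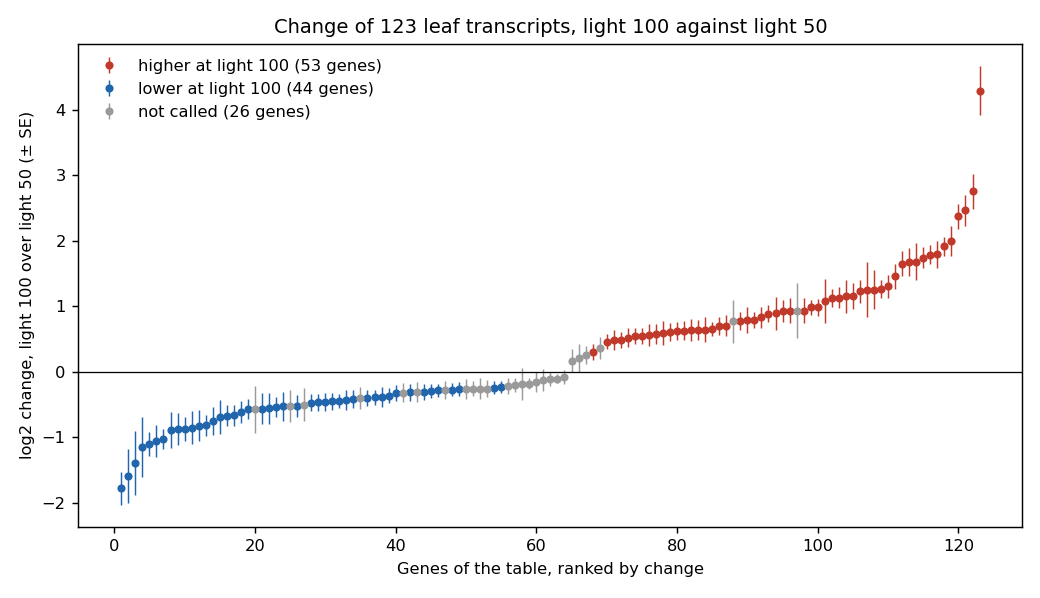
Log2 change of each of the 123 genes, light 100 over light 50, on the y axis, ranked from the lowest to the highest on the x axis. Bars are the standard error of the fit, and colour gives the call. The 53 genes called higher reach 4.29, while the 44 called lower reach -1.78 and most lie between -1 and 0.

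How many genes were lower depended on the scaling of the libraries. TMM, which takes the bulk of the table's own genes as unchanged, shifted the median log2 change over the table by 0.22 and gave 58 genes higher (47.2%) and 13 lower (10.6%). Centring each library on the median of the table shifted it by -0.33 and gave 32 higher (26.0%) and 63 lower (51.2%). The library totals used here and the authors' size factors, which gave 52 higher (42.3%) and 50 lower (40.7%), lay between. Under every scaling tried, 32 of the 53 genes remained higher and 13 of the 44 remained lower.

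**Figure D2:**
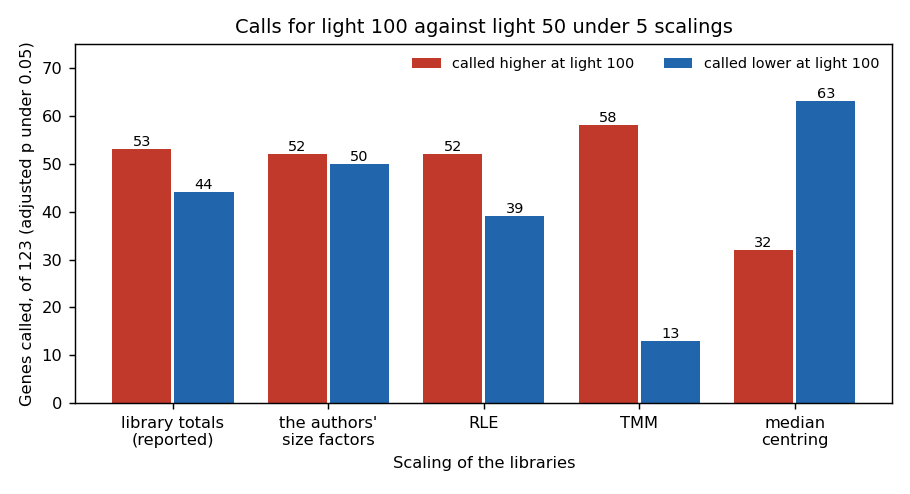
Number of genes, of 123, called higher (left bar) and lower (right bar) at light 100 than at light 50 under each of 5 scalings of the libraries. The number higher lies between 32 and 58, and the number lower between 13 (TMM) and 63 (median centring).

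The phenylpropanoid entry and flavonoid backbone list had 6 members and all of them rose. Their median log2 change was 1.62, against -0.12 over all 123 genes. The same 6 were called under all 5 scalings, and none of their libraries overlapped between the groups. Of all 123 genes, 43.1% were called higher and 41.5% were higher without overlap. Phenylalanine ammonia-lyase opens the pathway by removing the amino group of phenylalanine. Its gene Nitab4.5_0000101g0270 (Nt02, 4274470 to 4278549) had 241, 277 and 273 CPM at light 100, against 136, 103 and 122 CPM at light 50, a log2 change of 1.13 ± 0.16 (SE; adjusted p = 0.000146). The other gene of that name (Nt24, 27924035 to 27928253, Nitab4.5_0000754g0260) had 439, 374 and 389 CPM at light 100, against 228, 202 and 247 CPM at light 50, the smallest change of the list at 0.83 ± 0.16. All light 100 libraries were above all light 50 libraries for both genes. The labels do not say how reads matching several genes were counted, so the split between genes of 1 name is uncertain.

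Chalcone isomerase closes the flavanone ring and stands between the pathway's entry and its branches. Annotation names the next gene only as a probable isomerase, and whether its protein closes the ring was not tested. The gene named probable chalcone--flavonone isomerase 3 (Nt13, 11234714 to 11237111, Nitab4.5_0000375g0270) had 81.1, 129 and 93.9 CPM at light 100, against 10.003, 13.7 and 21.2 CPM at light 50. The groups lay far apart, with a fitted ratio of 6.73 and a log2 change of 2.75 ± 0.27 (SE; adjusted p = 1.13e-05). A chalcone--flavonone isomerase (Nt24, 109075142 to 109077641, Nitab4.5_0000027g0470) had 99.6, 148 and 95.3 CPM at light 100, against 34.9, 27.4 and 36.9 CPM at light 50, a log2 change of 1.79 ± 0.20 (SE; adjusted p = 3.72e-05). Replicate 2 was the highest light 100 library for both genes.

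Naringenin,2-oxoglutarate 3-dioxygenase, which hydroxylates flavanones to dihydroflavonols, and flavonol synthase, which turns dihydroflavonols into flavonols, followed. The dioxygenase (Nt17, 205873881 to 205875531, Nitab4.5_0000864g0050) had 38.4, 58.4 and 40.1 CPM at light 100, against 19.6, 15.03 and 15.3 CPM at light 50 and a log2 change of 1.46 ± 0.19 (SE; adjusted p = 7.55e-05). The gene of the next step (Nt12, 40715554 to 40722943, Nitab4.5_0005357g0020) had 245, 288 and 230.2 CPM at light 100, against 80.3, 62.5 and 78.5 CPM at light 50. That is 3.45-fold (log2 change 1.79 ± 0.15 (SE; adjusted p = 4.14e-06)), with little spread in either group. Summed over the list, reads came to 1180 ± 82.4 CPM at light 100, against 484.8 ± 53.5 CPM at light 50 (SD, n = 3). Per 100 antenna reads of the same library, a ratio that no scaling can move, the list had 5.34, 5.31 and 4.64 reads at light 100, against 1.62, 1.62 and 1.71 at light 50. Antenna reads were themselves lower at light 100 (23208 CPM, against 29355 CPM at light 50). The ratio therefore joins the list's rise with that fall, as do the later ratios per 100 antenna reads.

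All 7 sugar and acyl transferases rose as well, with a median log2 change of 1.74, again under all 5 scalings. Of all 123 genes, 43.1% were higher. The transferases attach sugars or acyl groups to small molecules such as anthocyanins, flavonols and hormones. For most of them the product name does not fix the substrate. UDP-glycosyltransferase 86A1 (Nt24, 28269879 to 28270736, Nitab4.5_0003524g0010) had the largest change of all 123 genes. It had 13.4, 23.6 and 14.6 CPM at light 100, against 1.13, 0.976 and 0.535 CPM at light 50, a log2 change of 4.29 ± 0.38 (SE; adjusted p = 6.49e-06). The light 50 libraries held as few as 8 reads of it, so the ratio of 19.6 rests on small counts. Anthocyanidin 3-O-glucosyltransferase, which glucosylates the anthocyanidin core, is listed for a pair of genes. The first (Nt19, 35855585 to 35857000, Nitab4.5_0000403g0080) had 42.5, 57.4 and 39.9 CPM at light 100, against 7.74, 6.50 and 11.1 CPM at light 50, a log2 change of 2.46 ± 0.24 (SE; adjusted p = 1.13e-05). The other (Nt05, 77278642 to 77279973, Nitab4.5_0001043g0030) had 21.6, 38.6 and 25.9 CPM at light 100, against 7.99, 5.72 and 7.83 CPM at light 50, a log2 change of 2.0 ± 0.23 (SE; adjusted p = 3.79e-05). Anthocyanin 5-aromatic acyltransferase (Nt23, 109984197 to 109985555, Nitab4.5_0001256g0060) is named for adding an aromatic acyl group to a sugar of anthocyanins. The table's KEGG column calls it an anthocyanin malonyltransferase. It had 22.5, 27.3 and 22.6 CPM at light 100, against 6.94, 7.48 and 7.23 CPM at light 50. Within each group its libraries hardly differed, and the log2 change was 1.74 ± 0.16 (SE; adjusted p = 6.93e-06).

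The remaining transferases changed less and varied more between replicates. Putative UDP-rhamnose:rhamnosyltransferase 1 (Nitab4.5_0000200g0190) had 305, 507 and 432 CPM at light 100, against 152, 121 and 248 CPM at light 50, its highest light 50 library coming near its lowest light 100 library. Its log2 change was 1.25 ± 0.29 (SE; adjusted p = 0.00366). The genes named UDP-glycosyltransferase 74E2 (Nitab4.5_0001704g0090 and Nitab4.5_0002356g0020) rose by log2 changes of 1.15 and 0.93. In reads per 100 antenna reads, the transferases had 3.25, 4.77 and 3.85 at light 100, against 1.07, 1.14 and 1.63 at light 50.

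The 5 starch and sucrose genes rose, with a median log2 change of 1.26, where 43.1% of all 123 genes were higher. The list includes enzymes that build starch and enzymes that break it down. On the building side, glucose-1-phosphate adenylyltransferase large subunit 1 (Nt19, 76942735 to 76946994, Nitab4.5_0000308g0330), part of the enzyme that makes the ADP-glucose used for starch, had 246, 279.8 and 187 CPM at light 100, against 53.2, 44.8 and 39.9 CPM at light 50. Every light 100 library was far above the light 50 libraries, with a log2 change of 2.37 ± 0.19 (SE; adjusted p = 4.14e-06). Granule-bound starch synthase 2 (Nt03, 90247218 to 90253959, Nitab4.5_0002980g0050) had 125, 195 and 147 CPM at light 100, against 57.3, 44.8 and 44.3 CPM at light 50, a log2 change of 1.67 ± 0.22 (SE; adjusted p = 7.55e-05). On the degrading side, alpha-1,4 glucan phosphorylase L-1 (Nt14, 87040991 to 87050128, Nitab4.5_0000154g0300), which releases glucose 1-phosphate from glucan chains, had 603, 602 and 524 CPM at light 100, against 281, 240.1 and 203 CPM at light 50 and a log2 change of 1.26 ± 0.14 (SE; adjusted p = 2.93e-05). 4-alpha-glucanotransferase DPE2 (Nitab4.5_0001388g0020), which in Arabidopsis uses the maltose released from starch, rose by 0.63 ± 0.16, and phosphoglucan phosphatase LSF1 (Nitab4.5_0004348g0040), a starch breakdown protein in Arabidopsis, by 0.54 ± 0.12. Those smaller changes were no longer called with median centring (adjusted p = 0.156 and 0.202), which left 3 of 5 members higher. Per 100 antenna reads the list had 4.94, 4.81 and 3.84 reads at light 100, against 1.41, 1.45 and 1.12 at light 50.

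**Figure D3:**
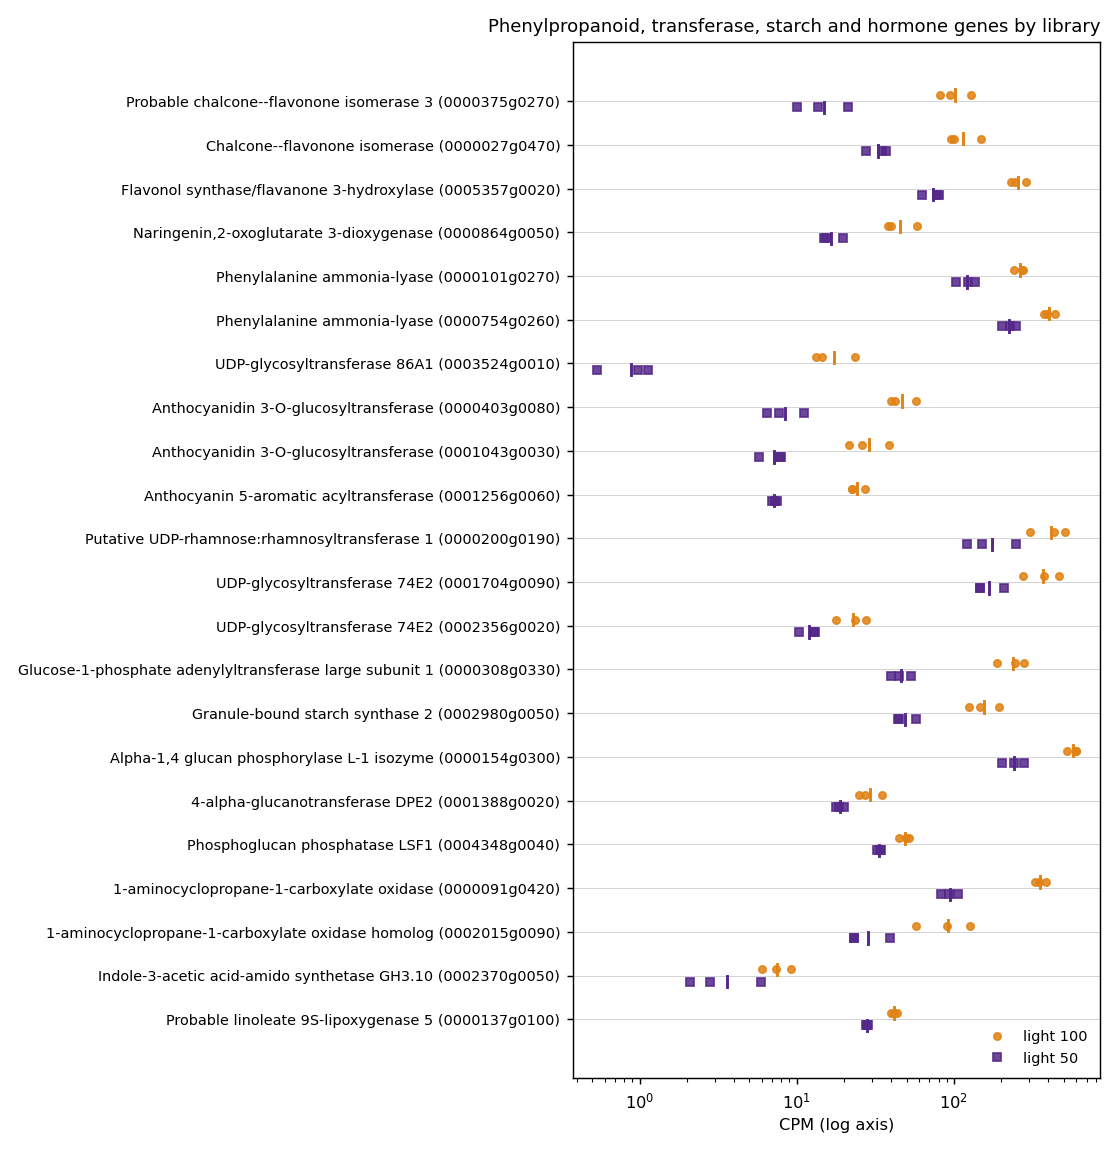
CPM on a log axis for each gene of the phenylpropanoid and flavonoid, transferase, starch, and hormone and oxylipin lists (rows), one point per library, with light 100 drawn above light 50 in each row and a tick at each group's mean. For all 22 genes every light 100 point lies to the right of every light 50 point, from UDP-glycosyltransferase 86A1 with the widest gap to GH3.10 with the narrowest. Of all 123 genes, 41.5% were higher without overlap.

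The list matched by names for ethylene, auxin conjugation and oxylipins had 4 genes and all of them rose. Their median log2 change was 1.38, where 43.1% of all 123 genes were higher. 1-aminocyclopropane-1-carboxylate (ACC) oxidase performs the last step of ethylene synthesis. Its gene (Nt14, 98536509 to 98538581, Nitab4.5_0000091g0420) had 346, 384 and 330.1 CPM at light 100, against 106, 93.5 and 82.3 CPM at light 50. The groups were far apart relative to their spread, with a log2 change of 1.91 ± 0.14 (SE; adjusted p = 4.14e-06). A gene named as a homolog of this oxidase (Nt08, 104191845 to 104195175, Nitab4.5_0002015g0090), which the table's KEGG column calls a 2-oxoglutarate-dependent dioxygenase, had 126, 90.95 and 57.4 CPM at light 100, against 39.1, 23.3 and 23.3 CPM at light 50. Its light 100 libraries differed from each other by more than 2-fold, and the log2 change was 1.68 ± 0.28 (SE; adjusted p = 0.000438). Indole-3-acetic acid-amido synthetase GH3.10 (Nitab4.5_0002370g0050), named for joining auxin to amino acids but called a jasmonic acid-amido synthetase in the KEGG column, had 9.14, 7.42 and 6.02 CPM at light 100, against 5.97, 2.08 and 2.81 CPM at light 50, so its lowest light 100 library barely cleared its highest light 50 library. Its log2 change of 1.08 ± 0.34 was not called without light 100 replicate 1 or with median centring. Linoleate 9S-lipoxygenase 5 (Nitab4.5_0000137g0100), an enzyme that oxygenates linoleic acid, rose by 0.58 ± 0.15, a call that median centring ended (adjusted p = 0.276).

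All 9 light-harvesting antenna genes fell, with a median log2 change of -0.39 and no overlap between libraries. Of all 123 genes, 35.8% were called lower and 41.5% were lower without overlap. The authors' deposited table marks 2 of the 9 as lower, chlorophyll a-b binding proteins 16 and P4. Only 2 of the 9 had changes of -0.67 or further from 0. Chlorophyll a-b binding protein 16 (Nt14, 109835123 to 109846561, Nitab4.5_0000982g0200) had 459, 557 and 569.8 CPM at light 100, against 941, 994 and 1302 CPM at light 50. Every light 100 library was well below every light 50 library, with a log2 change of -1.03 ± 0.15 (SE; adjusted p = 0.000173). Chlorophyll a-b binding protein P4 (Nt22, 8664153 to 8666436, Nitab4.5_0007189g0010) had 581, 751 and 767 CPM at light 100, against 969, 999 and 1363 CPM at light 50, a log2 change of -0.67 ± 0.16 (SE; adjusted p = 0.00369). These were also the antenna genes with the lowest levels per length, and reads of such related genes may be shared between copies. At the other end, the most abundant member per length, CP29.2 (Nt02, 52598904 to 52601038, Nitab4.5_0000335g0220), had 7035, 7705 and 7794 CPM at light 100, against 9442, 7904 and 9124 CPM at light 50, a log2 change of only -0.23 ± 0.10 (SE; adjusted p = 0.0438). That call was lost without light 50 replicate 1 or 3, any 1 light 100 library or light 200 replicate 1. It was also lost with TMM (log2 change -0.01, adjusted p = 0.852) and with RLE scaling (adjusted p = 0.0622). DESeq2 (adjusted p = 0.124) and a term for replicate number, the replicate block (adjusted p = 0.0909), ended it too. The other 6 antenna genes had log2 changes from -0.28 to -0.42.

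Summed antenna reads came to 23208 ± 1547 CPM at light 100 and 29355 ± 2779 CPM at light 50 (SD, n = 3). All 19 antenna and photosystem genes together had 45825 ± 2205 CPM at light 100 and 54760 ± 3584 CPM at light 50, while all 123 genes had 61326 ± 2488 CPM at light 100 and 70519 ± 3991 CPM at light 50. The antenna falls depended on scaling and on single libraries. With TMM the 9 changes stayed negative and 2 were called, CAB16 (adjusted p = 0.000448) and P4 (adjusted p = 0.0246). The count of 9 was 4 without light 50 replicate 1, 5 without light 50 replicate 3 and 3 without light 100 replicate 1. With RLE scaling it was 8, and with DESeq2 or the replicate block 6.

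Of the 5 photosystem I genes, 4 fell, where 35.8% of all 123 genes were lower. The median log2 change was -0.32, and all 5 changes were negative under every scaling. The authors' deposited table marks 0 of the 5 as lower. Subunit III (Nt17, 195091238 to 195094226, Nitab4.5_0001219g0180), which docks plastocyanin, had 296, 352 and 359.9 CPM at light 100, against 523, 417 and 439 CPM at light 50, a log2 change of -0.45 ± 0.13 (SE; adjusted p = 0.00969). Subunit V (Nt01, 124276760 to 124277203, Nitab4.5_0001622g0160) had 659, 738 and 745 CPM at light 100, against 922, 836 and 1000.0 CPM at light 50, a log2 change of -0.37 ± 0.11 (SE; adjusted p = 0.0144), called except with TMM and without light 100 replicate 1. The groups were again separate for both genes. Subunits XI (Nitab4.5_0001348g0130) and N (Nitab4.5_0000673g0170) had changes of -0.24 and -0.27, with adjusted p of 0.0416 and 0.0425. Subunit II (Nitab4.5_0000043g0320), the docking site of ferredoxin, was not called at -0.32 ± 0.15 (SE; adjusted p = 0.0583), although its libraries did not overlap. No photosystem I gene was called with TMM, and 2 were called with RLE scaling, with DESeq2 or with the replicate block. The count of 4 was 2 without light 50 replicate 1, light 50 replicate 3, light 100 replicate 3 or light 200 replicate 1, and 1 without light 100 replicate 1.

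Photosystem II and oxygen evolution stood nearer to no change. The median log2 change of the 5 genes was -0.12, and it was 0.10 with TMM. The median of all 123 genes is the same value because oxygen-evolving enhancer protein 2-2 is the middle gene of both sets. Photosystem II 10 kDa polypeptide (Nt09, 45558020 to 45561820, Nitab4.5_0000313g0040) had 8274, 8306 and 8008 CPM at light 100, against 8796, 8876 and 8775 CPM at light 50, a log2 change of -0.11 ± 0.07 (SE; adjusted p = 0.151). Its groups did not overlap but differed by little. With TMM it had a log2 change of 0.11 and was called higher (adjusted p = 0.0334). Oxygen-evolving enhancer proteins 1, 2-2 and 3 (Nitab4.5_0000108g0110, Nitab4.5_0005601g0020 and Nitab4.5_0002345g0070), which stabilise the water-splitting manganese cluster, had changes of -0.08, -0.12 and -0.18. None was called (adjusted p = 0.454, 0.311 and 0.071). The 1 gene of the list that was called is named D2 protein (Nt19, 34770038 to 34771267, Nitab4.5_0000220g0160) and had 4.90, 3.57 and 4.58 CPM at light 100, against 6.45, 7.42 and 5.35 CPM at light 50. That protein is normally encoded in the plastid, so which transcript its few reads come from is uncertain, and its call (adjusted p = 0.0487) was lost in 10 of the 17 alternatives, among them those without light 50 replicate 1 or 2, without any 1 light 100 library and without light 200 replicate 2.

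Ratios within a library place the groups of photosynthesis genes side by side with no scaling. Antenna reads per photosystem II read were 1.28, 1.37 and 1.42 at light 100, against 1.70, 1.44 and 1.59 at light 50. Photosystem I reads per photosystem II read were 0.308, 0.336 and 0.332 at light 100, against 0.384, 0.344 and 0.365 at light 50. Neither ratio overlapped between the groups, though light 100 replicate 3 and light 50 replicate 2 nearly met in the first. Antenna reads per photosystem I read were 4.16, 4.09 and 4.29 at light 100, against 4.43, 4.18 and 4.34 at light 50, and these overlapped.

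**Figure D4:**
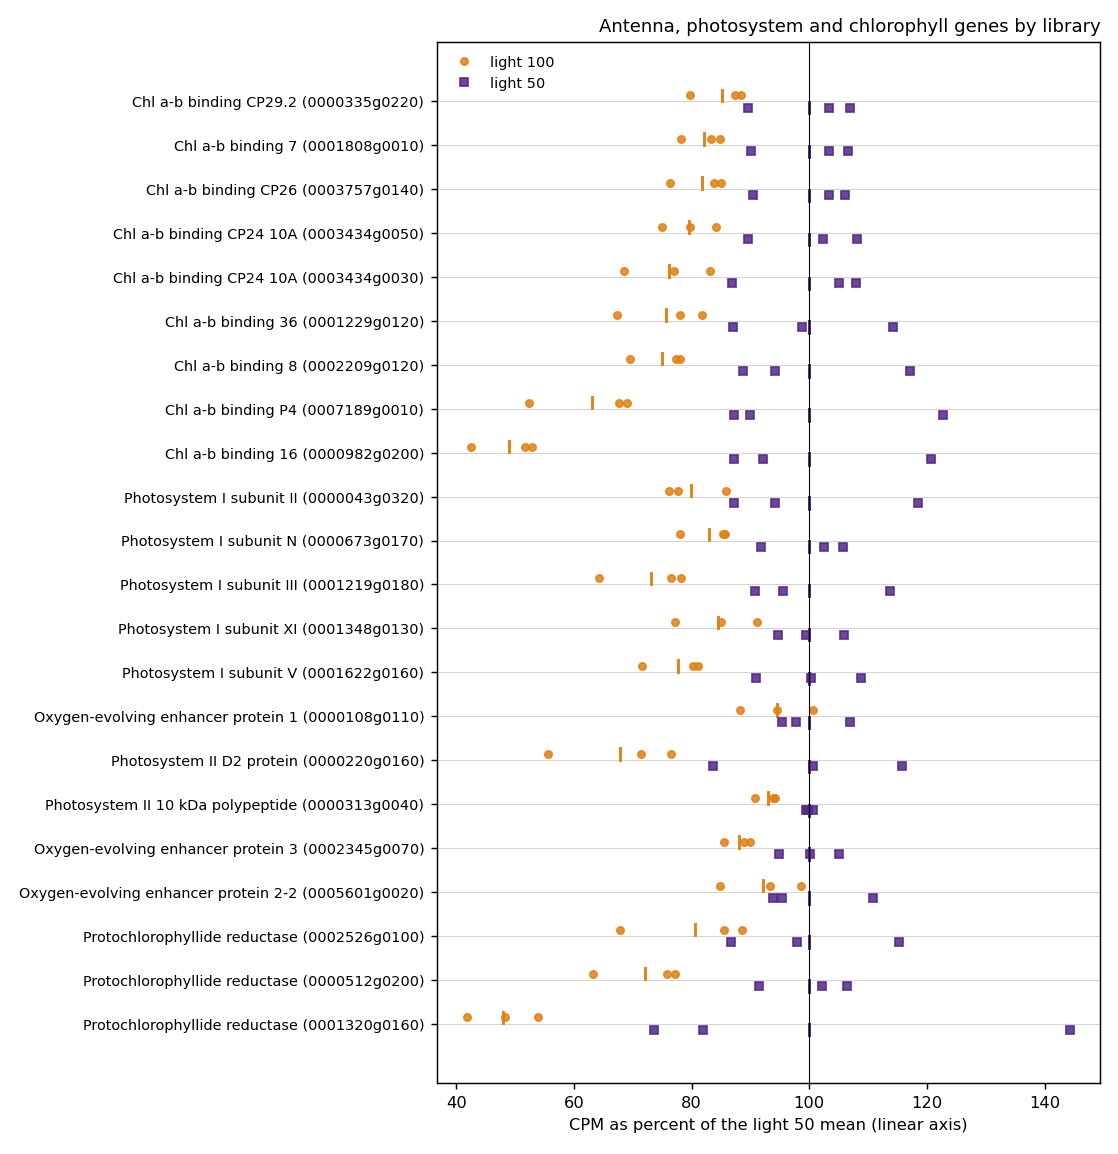
CPM of each antenna, photosystem and protochlorophyllide reductase gene (rows) as a percent of its light 50 mean, on a linear axis, one point per library, with light 100 drawn above light 50, ticks at the group means and a line at 100. Antenna and photosystem I points at light 100 lie left of all light 50 points, while oxygen-evolving enhancer proteins 1 and 2-2 overlap. Of all 123 genes, 41.5% were lower without overlap. With TMM, 4 of the 5 photosystem II changes turned positive.

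The chlorophyll synthesis list holds 3 genes named protochlorophyllide reductase, the light-driven enzyme that makes chlorophyllide. One (Nt01, 129185978 to 129189772, Nitab4.5_0001320g0160) fell the most, with 115, 133 and 148 CPM at light 100, against 203, 226 and 398 CPM at light 50. Its light 50 libraries were spread, replicate 3 being the highest, and the log2 change was -1.06 ± 0.25 (SE; adjusted p = 0.00369). A second (Nt02, 90418599 to 90421209, Nitab4.5_0000512g0200) had 273, 327 and 333 CPM at light 100, against 441, 394 and 459 CPM at light 50 and a log2 change of -0.47 ± 0.13 (SE; adjusted p = 0.00735), a call that was lost with TMM (adjusted p = 0.0633). The third (Nt10, 88794747 to 88797325, Nitab4.5_0002526g0100) had 270.4, 353 and 341 CPM at light 100, against 391, 346 and 459.8 CPM at light 50. Those libraries overlapped and the change of -0.31 ± 0.15 (SE; adjusted p = 0.0755) was not called. The split of reads between these 3 is uncertain too. The authors' deposited table marks 1 of them as lower, Nitab4.5_0000512g0200, and not the gene that fell the most. Of the 12 genes of no list whose product name says chloroplastic, 3 rose (25%) and 4 fell (33.3%), against 43.1% and 35.8% of all 123 genes. SFR2 (Nitab4.5_0003135g0010) rose by 0.98 ± 0.12, betaine aldehyde dehydrogenase 1 (Nitab4.5_0002101g0060), which makes the osmolyte glycine betaine, by 0.89 ± 0.14, and Nudix hydrolase 19 (Nitab4.5_0000106g0230) by 0.62 ± 0.14, a call that median centring ended (adjusted p = 0.166). Among those that fell, CURVATURE THYLAKOID 1B (Nitab4.5_0002053g0100), which bends the membrane at the edges of stacked thylakoids, fell by a log2 change of -0.44 ± 0.11. CP12-3 (Nt12, 122227199 to 122227570, Nitab4.5_0009514g0050), of a protein family that holds Calvin cycle enzymes inactive, had 37.5, 31.4 and 33.7 CPM at light 100, against 63.3, 52.9 and 47.2 CPM at light 50, a log2 change of -0.67 ± 0.16 (SE; adjusted p = 0.00436).

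The photoprotection and hydrogen peroxide list split. Early light-induced protein (Nt14, 113456482 to 113458425, Nitab4.5_0000977g0030), a relative of the antenna proteins made under excess light, had 49.5, 72.98 and 65.5 CPM at light 100, against 26.7, 25.1 and 24.3 CPM at light 50. It rose by a log2 change of 1.30 ± 0.18 (SE; adjusted p = 9.82e-05) and was called under every alternative. Catalase isozyme 1 (Nt15, 32215057 to 32219226, Nitab4.5_0000407g0130), which breaks down hydrogen peroxide in peroxisomes, had 2503, 1909.7 and 2215 CPM at light 100, against 3723, 3319 and 2827 CPM at light 50. It fell by a log2 change of -0.57 ± 0.15 (SE; adjusted p = 0.00735), except with TMM, under which it was not called (adjusted p = 0.0997). Zeaxanthin epoxidase (Nt17, 145236523 to 145243444, Nitab4.5_0002016g0120), which converts zeaxanthin back to violaxanthin, had 800.1, 838 and 862 CPM at light 100, against 1119.9, 999.9 and 907 CPM at light 50. The groups came close to each other, the log2 change was -0.28 ± 0.10 (SE; adjusted p = 0.0297), and the call was lost without any 1 of light 50 replicates 1 and 2 and light 100 replicates 1, 2 and 3 (adjusted p from 0.0518 to 0.1). It was also lost with DESeq2 (adjusted p = 0.054), with the replicate block (adjusted p = 0.0551) and with TMM, under which the log2 change was -0.06 (adjusted p = 0.583). Outside the list, ABA DEFICIENT 4 (Nt17, 208018906 to 208020123, Nitab4.5_0000912g0240), a protein needed for neoxanthin synthesis, had 28.1, 31.5 and 38.7 CPM at light 100, against 39.3, 56.9 and 83.7 CPM at light 50, a log2 change of -0.87 ± 0.24 (SE; adjusted p = 0.00839).

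The 3 sulphur amino acid enzymes fell, with a median log2 change of -0.62, where 35.8% of all 123 genes were lower. No call was left with TMM. Cysteine synthase (Nt15, 68784837 to 68790661, Nitab4.5_0000013g0360), which forms cysteine in the plastid, had 349, 351 and 355 CPM at light 100, against 450.2, 531 and 478 CPM at light 50, a log2 change of -0.47 ± 0.13 (SE; adjusted p = 0.00839). Mitochondrial L-3-cyanoalanine synthase (Nt19, 96394531 to 96399644, Nitab4.5_0000583g0180), which detoxifies cyanide, had 69.6, 56.5 and 53.7 CPM at light 100, against 91.2, 108 and 77.2 CPM at light 50, a log2 change of -0.62 ± 0.17 (SE; adjusted p = 0.00839). Both were separate between the groups. Thiosulfate sulfurtransferase 16 (Nt17, 202729575 to 202731104, Nitab4.5_0001696g0140) had 194, 136 and 228 CPM at light 100, against 662, 496 and 312 CPM at light 50. Light 50 replicate 1 had over 2 times the CPM of replicate 3, and the change of -1.40 ± 0.49 (SE; adjusted p = 0.0244) was no longer called without that replicate (adjusted p = 0.0871) or without light 100 replicate 2 (adjusted p = 0.0693).

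In the list of carbon fixation, glycolysis and ammonium assimilation, 3 of 4 genes rose, with a list median of 0.64, where 43.1% of all 123 genes were higher. Pyruvate kinase isozyme A (Nt19, 90843089 to 90846991, Nitab4.5_0000772g0060), the last enzyme of glycolysis, had 32.5, 33.9 and 28.4 CPM at light 100, against 24.2, 15.5 and 15.5 CPM at light 50, a log2 change of 0.78 ± 0.20 (SE; adjusted p = 0.00577). Glutamine synthetase (Nitab4.5_0001650g0160), which fixes ammonium, rose by 0.64 ± 0.19 and plastid glyceraldehyde-3-phosphate dehydrogenase GAPCP2 (Nitab4.5_0003777g0020) by 0.64 ± 0.16. None of the 3 was called with median centring. Rubisco activase (Nt05, 14483247 to 14485034, Nitab4.5_0004475g0020), which frees Rubisco of inhibiting sugar phosphates, had 40.03, 50.1 and 45.95 CPM at light 100, against 53.2, 54.1 and 55.2 CPM at light 50 and was not called, at -0.26 ± 0.12 (SE; adjusted p = 0.0746).

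Of the 6 transporters and aquaporins, 5 rose, with a median of 0.75, where 43.1% of all 123 genes were higher. The aquaporin PIP1-2 (Nt04, 88688582 to 88690152, Nitab4.5_0000737g0120), a water channel, had 92.4, 113 and 68.2 CPM at light 100, against 50.9, 45.7 and 46.9 CPM at light 50, a log2 change of 0.93 ± 0.19 (SE; adjusted p = 0.00169). The aquaporin PIP2-1 (Nitab4.5_0000101g0120) had 44.9, 79.7 and 56.7 CPM at light 100, against 44.6, 54.4 and 57.3 CPM at light 50 and was not called, at 0.21 ± 0.21 (SE; adjusted p = 0.347). The sodium/metabolite cotransporters BASS1 (Nitab4.5_0000667g0060) and BASS3 (Nitab4.5_0000038g0160), both named as chloroplastic, rose by 0.93 ± 0.17 and 0.79 ± 0.12. ABC transporter C family member 14 (Nitab4.5_0002469g0080) rose by 0.65 ± 0.11 and sulfate transporter 3.1 (Nitab4.5_0000678g0050) by 0.70 ± 0.17, calls that median centring ended (adjusted p = 0.0678 and 0.0913).

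Genes of the cell wall and cytoskeleton list went both ways, 2 of 5 up and 2 of 5 down. Those shares are near the 43.1% higher and 35.8% lower of all 123 genes. The list's median of 0.25 became -0.09 with median centring. The tubulin beta-1 chain (Nt11, 55587441 to 55590264, Nitab4.5_0001951g0080), a building block of microtubules, had 47.9, 41.1 and 51.4 CPM at light 100, against 116, 109 and 76.7 CPM at light 50. It fell clear of the light 50 libraries, by a log2 change of -1.10 ± 0.18 (SE; adjusted p = 0.000365). Beta-xylosidase/alpha-L-arabinofuranosidase 2 (Nitab4.5_0003089g0010), which trims wall xylans, fell by -0.52 ± 0.17, and that call was lost without light 50 replicate 1 or light 100 replicate 3 and with TMM. Both genes named beta-glucosidase BoGH3B rose (Nitab4.5_0001505g0020 by 0.98 ± 0.13 and Nitab4.5_0000010g0130 by 0.70 ± 0.14). Median centring ended the second of these calls (adjusted p = 0.0828). The fifth member, glucan endo-1,3-beta-glucosidase (Nitab4.5_0001170g0190), which cuts callose-type glucans, was not called, at 0.25 ± 0.14 (SE; adjusted p = 0.113).

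The protease and stress-named list had 5 of 7 members lower and 0 higher, with a median of -0.83, where 35.8% of all 123 genes were lower. This list, like the others, was chosen with earlier results of these data known. Its count and median are therefore no independent evidence of a fall. It contains the largest falls of the table. TLD domain-containing protein 1 (Nt12, 117120265 to 117126432, Nitab4.5_0001988g0020) had 58.1, 29.2 and 52.5 CPM at light 100, against 179, 183 and 117 CPM at light 50, a log2 change of -1.78 ± 0.25 (SE; adjusted p = 0.000146). CSC1-like protein ERD4 (Nt15, 92649958 to 92656772, Nitab4.5_0000315g0120), named in Arabidopsis as an early responder to dehydration, had 74.96, 31.7 and 62.03 CPM at light 100, against 160.1, 222 and 127 CPM at light 50, a log2 change of -1.59 ± 0.41 (SE; adjusted p = 0.00613). Light 100 replicate 2 was the lowest library for both. Subtilisin-like protease SBT1.9 (Nt22, 90722090 to 90724390, Nitab4.5_0002388g0020) had 41.5, 39.1 and 33.7 CPM at light 100, against 78.2, 65.6 and 59.1 CPM at light 50, a log2 change of -0.83 ± 0.24 (SE; adjusted p = 0.00984). The gene of the same name beside it on Nt22 (Nitab4.5_0002388g0010) had overlapping libraries and a change of -0.40 ± 0.17 (SE; adjusted p = 0.0506). The KIN2-like protein (Nitab4.5_0003384g0010), of a family induced by cold, was called at -1.14 ± 0.46 (SE; adjusted p = 0.0416), yet light 100 replicate 2 lay inside the light 50 range, and the call was lost without light 50 replicate 2 or 3 or light 100 replicate 1 or 3 and with TMM. The chloroplast protease Do-like 8 (Nitab4.5_0000274g0150) was called at -0.53 ± 0.22 (SE; adjusted p = 0.0487) and lost in 7 alternatives, among them those without light 50 replicate 2 or 3, light 100 replicate 1 or 3 and light 200 replicate 1. The list's count of 5 was 3 without light 50 replicate 2 or light 100 replicate 3.

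The remaining 51 genes belong to no list, and of these 20 were higher, 16 lower and 15 not called. Of all 123 genes, 43.1% were higher and 35.8% lower. Aspartate racemase (Nt04, 20697250 to 20699327, Nitab4.5_0002257g0010), which interconverts the mirror forms of aspartate, had 12.6, 13.4 and 13.4 CPM at light 100, against 4.68, 4.49 and 3.41 CPM at light 50, a log2 change of 1.65 ± 0.19 (SE; adjusted p = 3.72e-05). The next ones, chosen after their values were seen, act in amino acid and phenolic metabolism. Fumarylacetoacetase (Nitab4.5_0001198g0060), the last enzyme of tyrosine breakdown, rose by 1.23 ± 0.17. 2-isopropylmalate synthase A (Nitab4.5_0000122g0020), at the start of leucine synthesis, rose by 1.15 ± 0.20, and flavone 3'-O-methyltransferase 1 (Nitab4.5_0000725g0060) by 1.12 ± 0.14. Among genes that fell, polygalacturonase inhibitor (Nt06, 11587206 to 11588222, Nitab4.5_0005395g0010), which blocks wall-degrading enzymes of fungi, had 10.3, 6.77 and 9.88 CPM at light 100, against 13.5, 22.2 and 14.3 CPM at light 50. Its log2 change of -0.89 ± 0.27 (SE; adjusted p = 0.0128) was not called without light 50 replicate 2. Extensin-2 (Nitab4.5_0001049g0140), a wall glycoprotein, fell by -0.85 ± 0.25 and nicotinamidase 2 (Nitab4.5_0000069g0350) by -0.75 ± 0.22. The epidermis-specific secreted glycoprotein EP1 (Nitab4.5_0000246g0290) had a change of -0.69 ± 0.26 (SE; adjusted p = 0.0307), not called without light 50 replicate 2 or light 100 replicate 2. With TMM the inhibitor, the nicotinamidase and EP1 were not called (adjusted p = 0.0705, 0.0648 and 0.128).

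Markers of other tissues were few and were matched by product name only. The tubulin named above, on the meristem list, fell. The gene for berberine bridge enzyme-like 8, Nitab4.5_0000009g0310, from the list for root or nicotine synthesis, had 2.02, 1.16 and 1.81 CPM at light 100, against 1.21, 0.585 and 0.870 CPM at light 50, with overlap between the groups, and its change of 0.93 ± 0.42 (SE; adjusted p = 0.0586) was not called. A non-specific lipid-transfer protein (Nt23, 51681527 to 51681913, Nitab4.5_0000125g0030), on the glandular trichome list, had 26.8, 23.7 and 29.8 CPM at light 100, against 60.4, 46.9 and 39.6 CPM at light 50 and fell by -0.87 ± 0.18 (SE; adjusted p = 0.00218). Each list had this 1 gene in the table, and the part of other cell types in the results was not tested.

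Of the 46 genes whose product name says chloroplastic, 11 were higher (23.9%) and 23 lower (50.0%), against 43.1% and 35.8% of all 123 genes, and their median log2 change was -0.27, against -0.12. Of the 69 other named products, 40 were higher (58.0%) and 17 lower (24.6%), with a median of 0.58. With TMM the chloroplastic products had 13 higher and 6 lower, a median of -0.05, and the others 43 higher and 5 lower, a median of 0.79. With median centring the chloroplastic products had 7 higher and 34 lower, a median of -0.61, and the others 23 higher and 23 lower, a median of 0.24. Genes called lower were also the more abundant ones, with a median of 117.6 FPKM at light 100 and 188.2 FPKM at light 50, whereas genes called higher had a median of 59.3 FPKM at light 100 and 28.7 FPKM at light 50.

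Among the 26 genes not called, aspartyl protease AED3 (Nitab4.5_0003481g0010) had the smallest adjusted p with a positive change. It had 57.9, 91.2 and 70.7 CPM at light 100, against 29.4, 28.1 and 71.5 CPM at light 50, so light 50 replicate 3 lay among the light 100 libraries. Its change was 0.77 ± 0.33 (SE; adjusted p = 0.0507), and without that library it was 1.35 (adjusted p = 0.000564). Geranylgeranyl pyrophosphate synthase (Nitab4.5_0000110g0240), which makes the precursor of carotenoids and the chlorophyll tail, and DRT100 (Nitab4.5_0000213g0030), named for DNA damage tolerance, had positive changes of 0.36 and 0.17. Negative changes were fitted for tetraspanin-8 (Nitab4.5_0002587g0080, -0.19), xanthoxin dehydrogenase (Nitab4.5_0002812g0020, -0.13), which acts in abscisic acid synthesis, and the lumenal isomerase CYP38 (Nitab4.5_0003337g0100, -0.15). The gene named strigolactone esterase D14 (Nitab4.5_0002038g0020, -0.50), which the KEGG column calls a probable esterase KAI2, was expressed at under 10 CPM in every library of both groups. So was the isomerase FKBP17-2 (Nitab4.5_0008639g0010, -0.52). The other genes not called, beyond those given with their lists or markers above, were plastid transcriptionally active 16 (-0.26), plastid-lipid-associated protein 8 (-0.22), multiprotein-bridging factor 1b (-0.26), sorbitol dehydrogenase (-0.27), the kinase SIS8 (Nitab4.5_0004028g0050, -0.28), an alpha/beta-hydrolase (-0.57) and 1 uncharacterised gene (Nitab4.5_0000083g0050, -0.20).

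Whether the first doubling of light moved a gene by another amount than the second, from 100 to 200 µmol m-2 s-1, was tested as the difference between the log2 changes of the doublings, second minus first, in the same fit. The doublings share the light 100 libraries. In the second doubling 42 genes were called higher (34.1%) and 42 lower (34.1%). The difference itself was called for 5 of 123 genes (4.07%), and all 5 differences were negative: the first doubling brought more of the rise. ACC oxidase had 106, 93.5 and 82.3 CPM at light 50, 346, 384 and 330.1 CPM at light 100 and 589.8, 519.9 and 473 CPM at light 200. The first doubling moved it by 1.91 ± 0.14 and the second by 0.58 ± 0.14 on the log2 scale, a difference of -1.33 ± 0.23 (SE; adjusted p = 0.00802). Anthocyanin 5-aromatic acyltransferase had 6.94, 7.48 and 7.23 CPM at light 50, 22.5, 27.3 and 22.6 CPM at light 100 and 37.4, 31.7 and 29.9 CPM at light 200, a difference of -1.29 ± 0.25 (SE; adjusted p = 0.0154). UDP-glycosyltransferase 86A1 had 1.13, 0.976 and 0.535 CPM at light 50, 13.4, 23.6 and 14.6 CPM at light 100 and 35.5, 35.9 and 20.2 CPM at light 200, a difference of -3.46 ± 0.54 (SE; adjusted p = 0.00612). For these 3 genes the second doubling was called as well, with changes of 0.45 ± 0.15 for the acyltransferase and 0.83 ± 0.28 for the glycosyltransferase.

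For the others the second doubling itself was not called. The ACC oxidase homolog had 39.1, 23.3 and 23.3 CPM at light 50, 126, 90.95 and 57.4 CPM at light 100 and 81.9, 84.4 and 79.8 CPM at light 200, with changes of 1.68 ± 0.28 and -0.16 ± 0.27 and a difference of -1.84 ± 0.46 (SE; adjusted p = 0.0496). SFR2 (Nt06, 3886580 to 3893872, Nitab4.5_0003135g0010), a galactolipid-remodelling enzyme of the chloroplast envelope needed for freezing tolerance in Arabidopsis, had 122, 114 and 106 CPM at light 50, 232, 222 and 220.2 CPM at light 100 and 265, 242 and 254 CPM at light 200. Its difference was -0.81 ± 0.19 (SE; adjusted p = 0.0496), as close to the threshold as that of the homolog. Of 16 alternatives, the homolog's call was lost in 9, which include leaving out light 50 replicate 2 or 3, light 100 replicate 1 or 2 or any 1 light 200 library, and that of SFR2 in 12, which include leaving out any 1 library but light 50 replicate 1. The call of ACC oxidase was lost only without light 100 replicate 2 (adjusted p = 0.0777), that of the acyltransferase with RLE scaling and without replicate 2 of light 100 or of light 200, and that of UDP-glycosyltransferase 86A1 in none of them. The count of 5 was 1 without light 100 replicate 2, 2 without light 200 replicate 2, 3 without light 50 replicate 2 or light 200 replicate 3, and 14 without light 50 replicate 1. With TMM it was 23. No antenna or photosystem gene was called for the difference, which does not show that their doublings were alike.

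**Figure D5:**
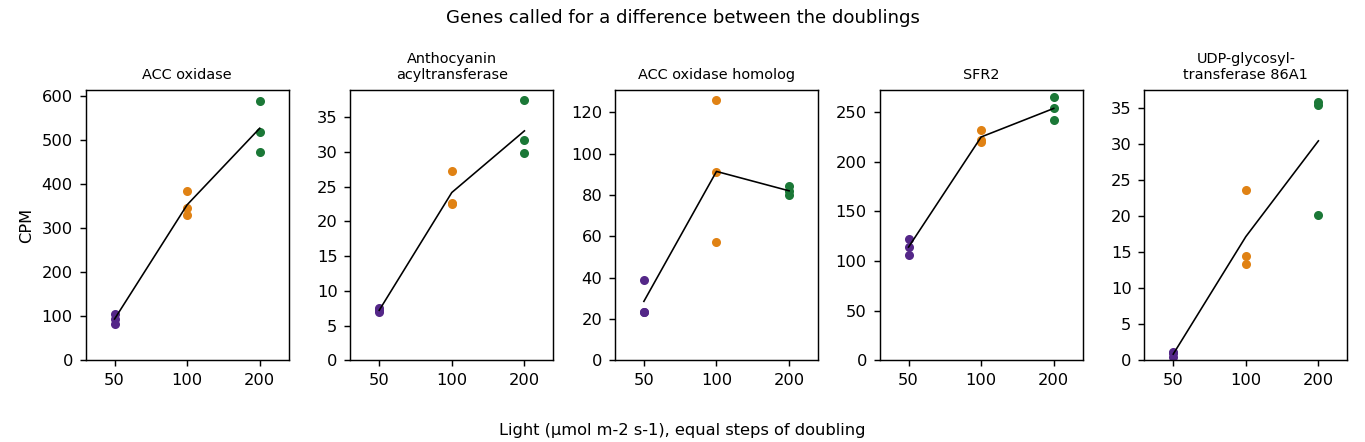
CPM of the 5 genes called for a difference between the doublings, one panel per gene with its own y axis from 0, against light intensity on the x axis (50, 100 and 200 µmol m-2 s-1, spaced as equal doublings). Points are libraries and the line joins group means; in each panel the segment from 50 to 100 is steeper than that from 100 to 200, and for the ACC oxidase homolog the mean at 200 lies below that at 100.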

How the data were processed

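Leaf RNA libraries were made with the NEBNext Ultra kit, per the labels' protocols. The kit does not mark strand, and reads of a gene and an antisense or overlapping partner cannot be told apart. CASAVA 1.7, HISAT and HTSeq are named in the submitters' processing notes. The build is not named in the sources used here, and coordinates are as the deposited table gives them. The table holds raw read counts per gene and library and the authors' FPKM values, per the file headers. Per the file headers it also holds the authors' group means of normalised counts (a score with no fixed range), their log2 fold changes (light 50 over light 100, sign turned here), and their p-values and adjusted p-values. The sources used here do not give the rule by which the 123 genes were chosen.

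Counts as deposited went into edgeR 4.0.16 (R 4.3.3), with glmQLFit and a two-sided glmQLFTest over the 9 libraries and no term but group. Effective library sizes were the library totals implied by count, FPKM and gene length. The filter filterByExpr kept all 123 genes, and p-values were adjusted by Benjamini-Hochberg. Standard errors are those implied by the log2 change and the test statistic. Replicates of a group differed by more than sampling noise (chi-square divided by its degrees of freedom, 23.5 to 153.3), so each counted as 1 sample. The p-values measure the spread between these samples. Single counts lay between 8 and 136456 reads. The fitting step was tested on simulated data. Alternatives were the authors' size factors, recovered with a largest relative error of 5.0e-10, TMM, RLE, median centring, no filter, DESeq2 1.42.0, a replicate block, the 6 libraries alone, and leaving out each library.

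The members and lists were chosen with earlier results of these data known. Lists match product names, and terms that matched an unrelated product were excluded after the product names were seen. Named genes were the 12 called genes that rose most and the 12 that fell most, 1 per product name, given a higher group mean of 5 CPM or more and libraries that did not overlap. To these came, for each list and direction, the called member with the smallest p, all members of lists of 3 or fewer, genes called for the difference between doublings and genes not called. Other genes are named as members of a list. Identifiers matched 0 entries of the reference gene table, so no sequence is shown.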

Additional observations from a re-analysis of the deposited data

Results flagged for a closer look

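The test of the difference between the doublings of light, second minus first, was called for 5 genes (edgeR's quasi-likelihood test, Benjamini-Hochberg over 123 genes), and 21 had an unadjusted p under 0.05. UDP-glycosyltransferase 86A1 (Nitab4.5_0003524g0010) had a difference of -3.46 on the log2 scale, the ACC oxidase homolog (Nitab4.5_0002015g0090) one of -1.84, ACC oxidase (Nitab4.5_0000091g0420) one of -1.33, anthocyanin 5-aromatic acyltransferase (Nitab4.5_0001256g0060) one of -1.29 and SFR2 (Nitab4.5_0003135g0010) one of -0.81. In each the rise was larger in the first doubling. Over all 123 genes, 83 had a negative difference. For a gene that falls, a negative difference means a larger fall in the second doubling, not a larger first step. Of the 19 antenna and photosystem genes, all with a negative first change, 14 had a negative difference. The genes of the table had been chosen for a change over both doublings together.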

How the results depend on the processing

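Of the 53 genes called higher at light 100, 31 were called in every alternative, and of the 44 called lower, 13 were. With 1 library left out, the number higher was 50 to 53 and the number lower 30 to 47, and 49 and 22 genes stayed called without each library in turn. Median centring gave 32 genes higher and TMM 13 lower, and the split was 52 and 39 with RLE, 54 and 35 with DESeq2, 52 and 41 with the 6 libraries alone. The difference between the doublings was called for 3 genes with the authors' size factors, 23 with TMM, 2 with RLE, 11 with DESeq2 and 1 to 14 with 1 library left out. The cause of these moves was not tested. TMM turned the changes of oxygen-evolving enhancer proteins 1, 2-2 and 3 to 0.135, 0.0997 and 0.0348, those of the photosystem II 10 kDa polypeptide to 0.112, CYP38 to 0.0628, tetraspanin-8 to 0.0284, xanthoxin dehydrogenase to 0.0894 and the uncharacterised Nitab4.5_0000083g0050 to 0.0142, and the median of the photosystem II list to 0.0997. Median centring turned the change of PIP2-1 to -0.14, of DRT100 to -0.165, of acetyl-CoA carboxylase 1 to -0.0214 and of glucan endo-1,3-beta-glucosidase to -0.0921, and with the last the median of the cell wall and cytoskeleton list. With 1 library left out, the change of PIP2-1 ranged from -0.0379 (without light 100 replicate 2) to 0.387, and xanthoxin dehydrogenase from -0.265 to 0.00136 (without light 50 replicate 1). Without the gene named D2 protein, left out after the data were seen, 13 of 18 antenna and photosystem genes were lower, against 14 of 19 with it, and 2 were with TMM. Same-numbered libraries of light 100 and light 50 deviated together with correlations of 0.277, -0.443 and 0.056 across genes. For libraries of different number they ranged from -0.556 to 0.451. Deviations from a mean of 3 libraries are tied to each other, so these values cannot decide whether the numbers pair the samples. The replicate block gave 53 genes higher, 34 lower and 7 called for the difference between the doublings, with 9 of 19 antenna and photosystem genes lower. D14 and FKBP17-2, at under 10 CPM, had changes of -0.50 and -0.52 that were not called, and few reads limit the precision of both.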
